A study of Danio rerio with 170 samples.

Results

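The genes described here are the ATP-binding cassette (ABC) transporters of 48 hpf (hours post fertilization) zebrafish embryos, measured by RNA-seq after chemical exposure. They were taken as every gene whose symbol, looked up by its NCBI GeneID, starts with abc, a letter from a to h and a digit, and 47 of the 21854 genes in the deposited table met this rule. By subfamily they were 9 A, 9 B, 12 C, 5 D, 1 E, 4 F, 6 G and 1 H genes. Sorted by what they are known to do, 14 act in the efflux of xenobiotics and conjugates, 2 in bile salt excretion, 12 in cellular lipid export, 5 in mitochondria and heme handling, 5 in peroxisomes and lysosomes, 3 as regulators of potassium channels and 5 in translation, and 1 is the H subfamily gene abch1. The symbols abcb9, abcc10, abcg2b, abcg5 and abcg8 fit the rule in a zebrafish gene table but were not analysed here.

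ABC proteins share a nucleotide-binding domain that hydrolyses ATP, and most use that energy to move a substrate across a membrane. The P-glycoprotein-like B genes, the multidrug resistance-associated C genes and abcg2 are the pumps that keep foreign compounds and their glutathione, glucuronide and sulfate conjugates out of cells, and in zebrafish embryos abcb4 is the pump best known for this defence. Others export cholesterol and phospholipids, carry fatty acids into peroxisomes, serve heme metabolism, or, in the E and F subfamilies, lack membrane domains and act on ribosomes.

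The libraries came from 5 exposure studies that the authors processed together, with 33 treatments and 6 DMSO vehicle groups of 2 to 4 libraries each, all whole wild-type embryos of the Tropical 5D strain collected at 48 hpf. In the flame retardant study the vehicle was 0.64% DMSO, and the 10 flame retardant chemicals (FRCs) were BDE-47 (85 µM), IPP (19.8 µM), TBBPA (4 µM), TBBPA-DBPE (4 µM), TBPH (72 µM), TCEP (85 µM), TCPP (85 µM), TDBPP (3 µM), TPP (8 µM) and TiBP (158 µM). Of the polycyclic aromatic hydrocarbons and their derivatives (called hydrocarbons below), all in 1% DMSO, BbF (50 µM), BjF (14.9 µM), BkF (1.9 µM), DBahP (10 µM), DBaiP (5 µM), Retene (12.2 µM), Acenaphthene, Fluoranthene and Phenanthrene (50 µM each) shared the control group DMSO_A. A second control group, DMSO_B, served 1,5-DMN, 2-MN, 9-MA, Anthracene and Carbazole (50 µM each), 3-NF (1.9 µM) and 4h-CPdefP (16.2 µM). Another study held benzo[a]pyrene at 1 µM and 10 µM (B[a]P_1 and B[a]P_10) and DBalP (10 µM), the next held 7,12-B[a]AQ (10 µM), BEZO (10 µM) and 9,10-PQ (1.2 µM), and the last TCDD at 1 ng/mL in 0.1% DMSO. Following the study's own classes, TCDD and 9 hydrocarbon treatments (7,12-B[a]AQ, B[a]P_1, B[a]P_10, BbF, BjF, BkF, DBahP, DBaiP and Retene) are called AHR2 Activators, for the aryl hydrocarbon receptor that drives cyp1a in fish, and the other 13 are called other hydrocarbons. For B[a]P, DBalP and 9,10-PQ the study's methods describe pools of embryos as samples, and nothing in the labels says whether replicates came from separate clutches, so p-values measure the spread between these samples only. Treatments that share a DMSO group also share its error, and doses differ between treatments, so pairs of different compounds are compared only where the dose matched. The contrasts over several treatments mix doses.

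The 144 libraries held 6795594 to 28566824 reads on the genes of the table, with a median of 18023617.5, and gene levels below are normalized reads, that is reads divided by the library's size factor. Entries that shared a sequencing lane and index differed by no more than counting noise and were counted as 1 library, which merged 47 of the 170 deposited entries into 21 libraries. A set of 4 libraries stood apart from the rest of their group across all genes, namely TBBPA replicate 2, TCEP replicate 2, Acenaphthene replicate 4 and replicate 3 of the DMSO group of the B[a]P study, and values without them are given beside the larger results of TBBPA, TCEP and the B[a]P study. In the B[a]P study DMSO and B[a]P_10 were run on one lane and B[a]P_1 and DBalP on another. Lane and treatment therefore cannot be told apart where B[a]P_1 or DBalP is compared with DMSO or B[a]P_10. In the study of 7,12-B[a]AQ, BEZO and 9,10-PQ the DMSO libraries were on lane 1. The 9,10-PQ libraries were on lanes 2 and 3, so they shared no lane with their controls. A lane block links them to the controls only through 7,12-B[a]AQ replicate 3, on lane 2. Replicates were left out by number, 1 number at a time from every treatment or from every DMSO group, and where this or another setting ended a call of a gene described in full, that is said with the highest adjusted p that resulted. Depth was enough for most ABC genes, since 32 had a median of at least 100 reads per library, and the lowest were abca4a (0 to 32 reads) and abch1 (0 to 74 reads). How reads shared between close copies were assigned is not given in the sources used here, so levels within the pairs abcc6a and abcc6b.2, abca1a and abca1b, abca4a and abca4b, and the abcg2 genes, carry that uncertainty.

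Against their own DMSO group, 38 of the 47 genes passed an adjusted p of 0.05 in at least 1 of the 33 treatments, where 61.1% of all genes did, and 9 passed in none (abca7, abcb11a, abcc3, abcc9, abcc13, abcd3a, abcd4, abcg4a and abch1). Over the 10 FRCs 60 of 470 gene and treatment combinations passed, which is 12.8% beside 9.47% for all genes, and of these 39 were higher (5.25% of all genes) and 21 lower (4.22%). The AHR2 Activators gave 21 of 470, which is 4.47% beside 1.61%, with 12 higher (0.839% of all genes) and 9 lower (0.776%). For the other hydrocarbons it was 39 of 611, which is 6.38% beside 3.83%, with 25 higher (1.79% of all genes) and 14 lower (2.04%). Among genes with a mean of at least 10 reads the shares over all such genes were 10.8%, 1.94% and 4.46%. With a change over 2-fold added, the study's definition of a differentially expressed gene (DEG), 21 of the FRC combinations (4.47% beside 3.97%), 2 of the Activator combinations (0.426% beside 0.382%) and 6 of the other hydrocarbon combinations (0.982% beside 0.739%) remained. Without the libraries that stood apart, the 3 counts of calls were 101, 29 and 40, with 18.2%, 3.29% and 4.42% of all genes.

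**Figure D1:**
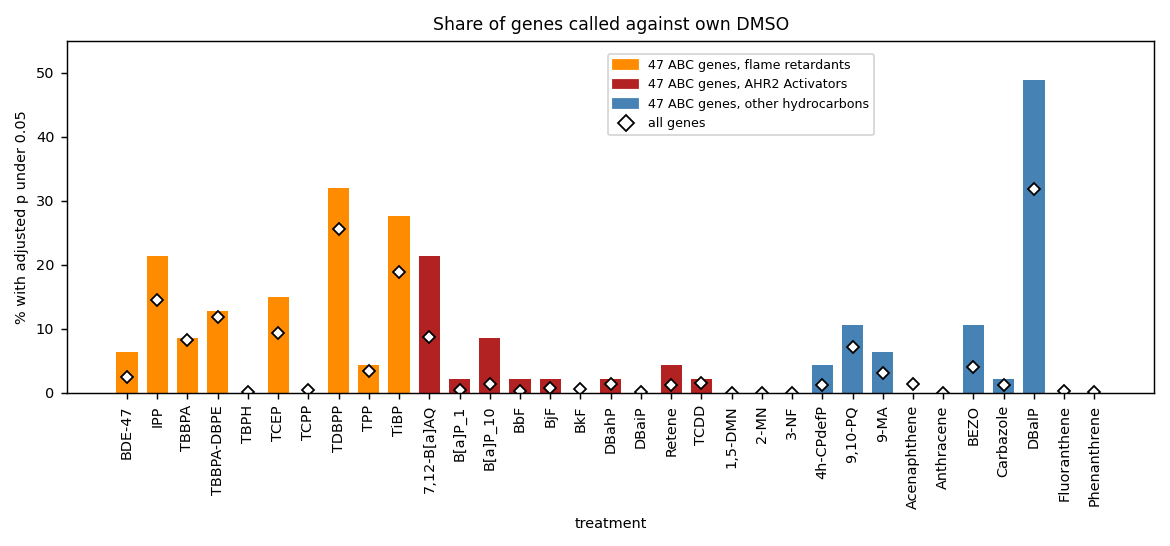
Percent of the 47 ABC genes (bars, coloured by chemical class) and of all 21854 genes (diamonds) with an adjusted p under 0.05 against the treatment's own DMSO group, for each of the 33 treatments. DBalP is the tallest bar, with 23 of 47 genes beside 31.8% of all genes, and 11 treatments have no ABC gene past the threshold.

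Single treatments differed widely. DBalP changed 23 of the 47 genes beside 31.8% of all genes, TDBPP 15 beside 25.5%, TiBP 13 beside 18.9%, and IPP 10 beside 14.5%. The only AHR2 Activator with more than 4 was 7,12-B[a]AQ, with 10 genes beside 8.72%. TCEP changed 7 (beside 9.38%), TBBPA-DBPE 6 (11.8%), 9,10-PQ 5 (7.06%), BEZO 5 (3.94%), TBBPA 4 (8.18%), B[a]P_10 4 (1.41%), BDE-47 3 (2.48%) and 9-MA 3 (3.00%). Retene (beside 1.11%), TPP (3.36%) and 4h-CPdefP (1.14%) changed 2 each. BbF (0.247%), BjF (0.760%), DBahP (1.32%), Carbazole (1.21%), B[a]P_1 (0.325%) and TCDD (1.55%) changed 1 gene each. No ABC gene passed in limma in 11 treatments, which were TBPH (0.0686% of all genes), TCPP (0.458%), BkF (0.549%), DBaiP (0.151%), 2-MN (0.00458%), Acenaphthene (1.40%), Fluoranthene (0.270%) and Phenanthrene (0.0137%), and 1,5-DMN, 3-NF and Anthracene (0.00% each). At an unadjusted p under 0.05 those 11 treatments had 1 to 9 ABC genes, beside 636 to 4891 of all 21854 genes. With voom weights on the recovered reads 0 ABC genes passed the adjusted threshold there. Without the libraries that stood apart, none of which is a TBPH or TCPP library, 2 ABC genes passed in TBPH and 3 in TCPP. The shares of all genes then were 1.87% and 2.92%.

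**Figure D2:**
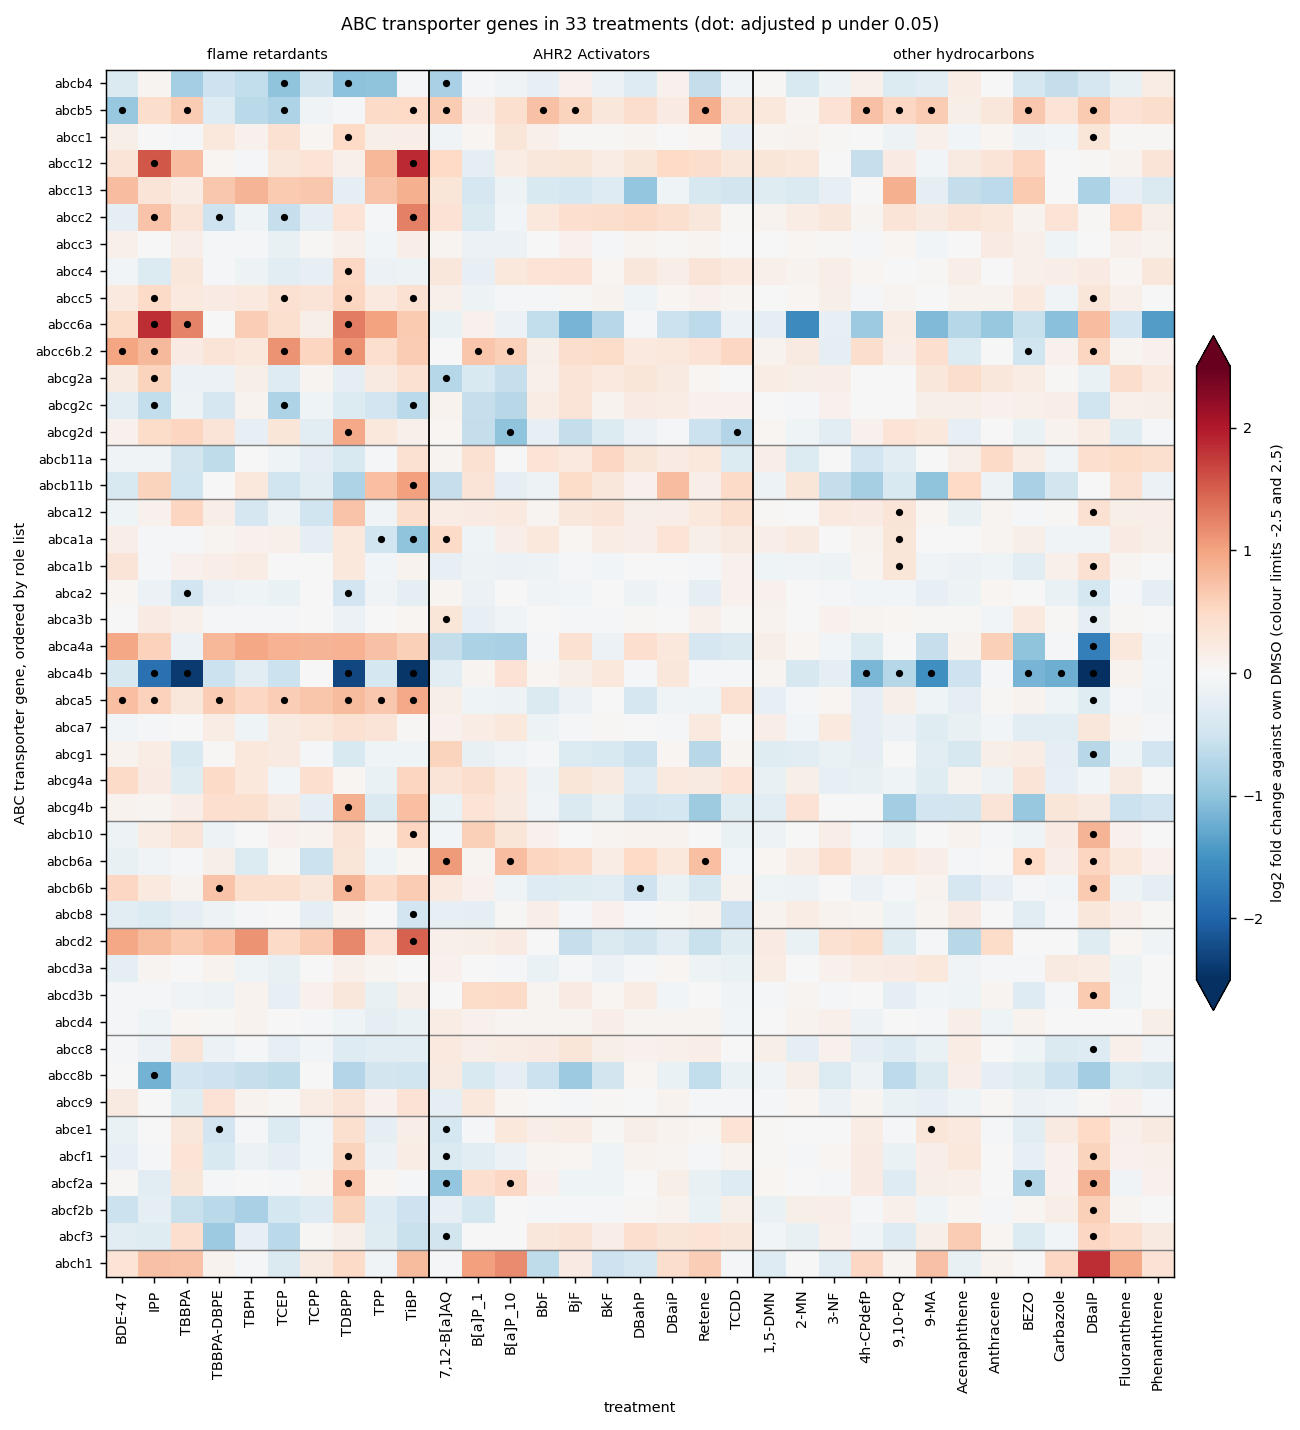
Log2 fold change of the ABC genes reported here (rows, grouped by role list) in each of the 33 treatments (columns, grouped by class) against its own DMSO group, with a dot where the adjusted p was under 0.05. The row of abcb5 has dots in all 3 classes, abca5 is red across the flame retardants, and abca4b is the darkest blue row, down to -3.57 in DBalP.

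Among the efflux pumps, abcb5 was the ABC gene that passed in the most treatments, 13 of the 33. It belongs to the P-glycoprotein-like branch of subfamily B. Its direction differed between treatments: it was higher in 4 AHR2 Activators, 5 other hydrocarbons and 2 FRCs, and lower in 2 FRCs. Being called in at least 3 Activators in 1 direction described abcb5 and abcb6a and 0.723% of all genes, and being called in at least 5 other hydrocarbons in 1 direction described abcb5 and abca4b and 0.252% of all genes. In DMSO_A the libraries held 747, 895 and 901 normalized reads of abcb5, and the Retene libraries held 1841, 1767, 1795 and 1089.8 (log2 fold change 0.91, SE 0.13, adjusted p = 1.01e-06). Retene replicate 4 was the low library of its group, yet it too lay above every DMSO_A library. BbF gave 1289, 1512 and 1401 (log2 fold change 0.73, SE 0.14, adjusted p = 0.00147). BjF gave 1224, 1294, 1233 and 1239 (log2 fold change 0.56, SE 0.13, adjusted p = 0.0124). All libraries of both benzofluoranthenes were above all of DMSO_A. The abcb5 call was lost in BbF without treatment replicate 2 or 3 (adjusted p up to 0.0984), and in BjF without treatment replicate 2 or 3 or without DMSO replicate 2 (adjusted p up to 0.105).

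The same gene separated cleanly in the study of oxygenated hydrocarbons. There the DMSO libraries held 571, 577 and 553, against 917, 896 and 846 in 7,12-B[a]AQ (log2 fold change 0.64, SE 0.07, adjusted p = 1.5e-05). BEZO libraries were at 893 and 925 (log2 fold change 0.68, SE 0.08, adjusted p = 6.46e-05). 9,10-PQ libraries were at 867, 733 and 852 (log2 fold change 0.52, SE 0.07, adjusted p = 0.000432). No treated library reached down to the control range in any of these 3 groups, and all 3 calls held in every alternative tried. The 9,10-PQ libraries shared no lane with these controls. In the DMSO_B set, with controls at 880.5, 696, 871 and 1015, abcb5 was at 1679, 1357, 1361 and 1359 in 4h-CPdefP (log2 fold change 0.74, SE 0.12, adjusted p = 0.00013). 9-MA gave 1351, 1602, 1252 and 1142 (log2 fold change 0.63, SE 0.12, adjusted p = 0.000457). DBalP gave 1109, 1160.3 and 1275 against 879, 797 and 597 in its DMSO group (log2 fold change 0.66, SE 0.13, adjusted p = 0.00161). In each of these, too, the treated and control libraries did not overlap, and without the DMSO library that stood apart the DBalP value was 0.49 (adjusted p = 7.8e-05). TCDD, a potent AHR ligand, had abcb5 at 1510.3, 1636, 1818 and 1836 against 1456, 1277, 1373 and 1340.1, and this difference did not pass (log2 fold change 0.32, adjusted p = 0.0985) although every TCDD library was above the controls.

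In the FRC study abcb5 moved both ways. The DMSO libraries held 1524, 1202, 1201 and 954. BDE-47 lowered it to 666, 671, 612 and 564 (log2 fold change -0.94, SE 0.17, adjusted p = 0.00221). TCEP gave 864, 601, 809 and 596 (log2 fold change -0.77, SE 0.17, adjusted p = 0.00513). Both groups lay below all 4 controls, and without the libraries that stood apart the TCEP value was -0.69 (adjusted p = 0.00202). TBBPA gave 2226, 1326, 1927 and 2196 (log2 fold change 0.64, SE 0.17, adjusted p = 0.0164), where replicate 2 alone fell inside the control range, and without the libraries that stood apart the value was 0.81 (adjusted p = 0.00115). TiBP gave 1546, 1643, 2011 and 1644 (log2 fold change 0.50, SE 0.17, adjusted p = 0.0397), with its lowest library just above the highest control. TBPH libraries, at 727, 636, 918 and 756, were also all below the controls and did not pass (log2 fold change -0.68, adjusted p = 0.112), but did so without the libraries that stood apart (adjusted p = 0.0132). The abcb5 calls in BDE-47, TCEP, TBBPA and TiBP were lost in 1, 2, 6 and 7 of 18 alternatives (adjusted p up to 0.0542, 0.104, 0.252 and 0.176), among them those without BDE-47 replicate 4, TCEP replicate 4, TBBPA replicate 1, 3 or 4, TiBP replicate 1, 3 or 4, or without DMSO replicate 2, 3 or 4.

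**Figure D3:**
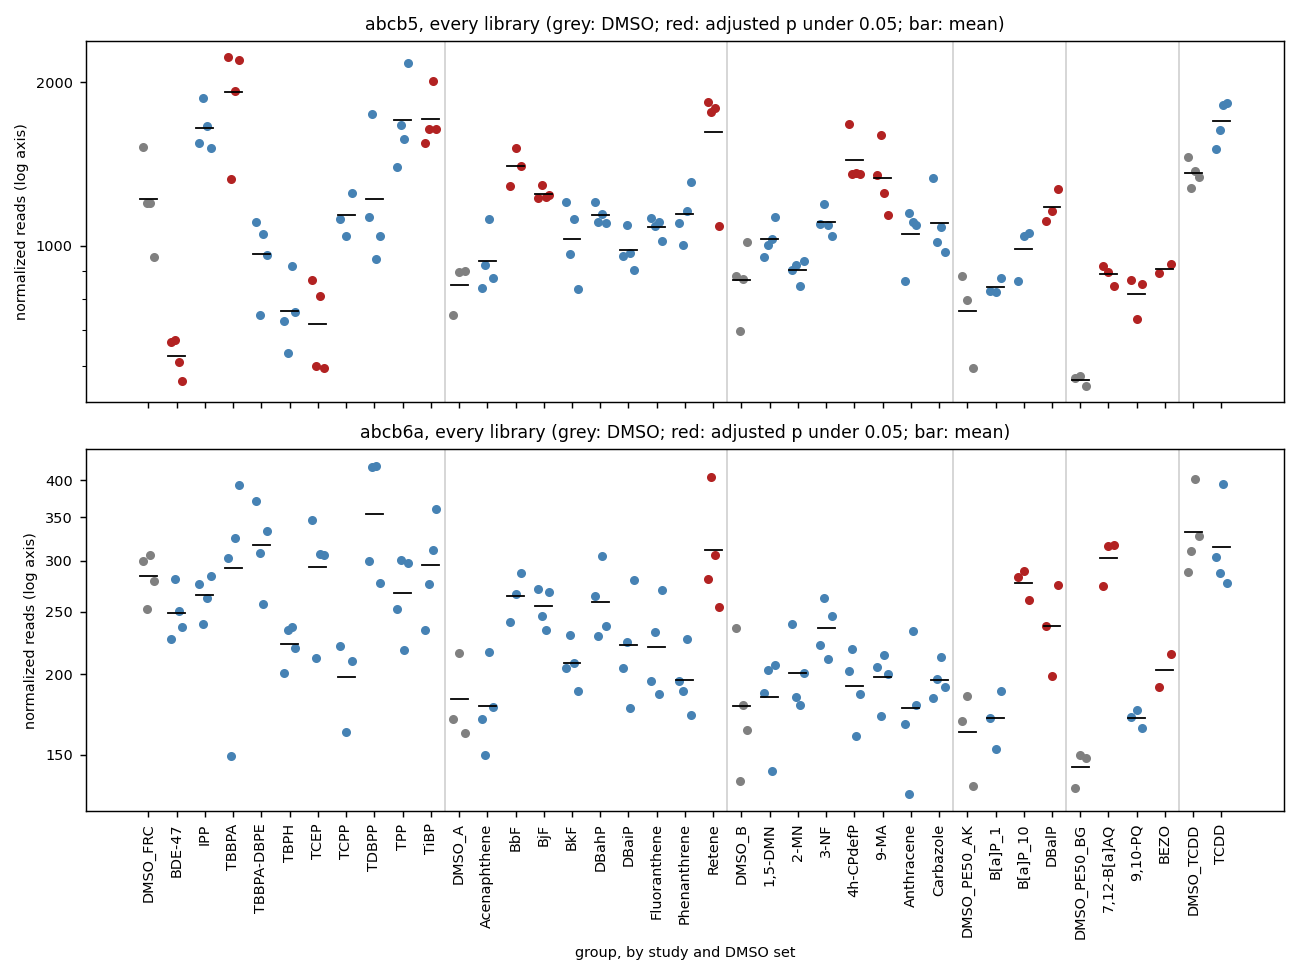
Normalized reads of abcb5 (top) and abcb6a (bottom) in every library on a log axis, with groups ordered by control set, DMSO groups in grey, treatments past an adjusted p of 0.05 in red and bars at the group means. For abcb5 the BDE-47 libraries lie at 564 to 671, below the controls at 954 to 1524, while the red hydrocarbon groups all lie above their own grey controls.

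The gene abcb4, the main efflux pump of the zebrafish embryo, fell where it changed at all. Its controls in the FRC study were at 87.3, 74.1, 108 and 87.2, and TDBPP libraries were at 51.2, 27.0, 39.4 and 60.0 (log2 fold change -1.03, SE 0.31, adjusted p = 0.0123). TCEP libraries were at 55.9, 40.8, 38.4 and 40.7 (log2 fold change -1.01, SE 0.31, adjusted p = 0.0344). Treated libraries were all below the controls in both, and without the libraries that stood apart the TCEP value was -0.98 (adjusted p = 0.0103). In 7,12-B[a]AQ it was at 50.5, 48.7 and 39.2 against 89.3, 91.0 and 66.4 (log2 fold change -0.81, SE 0.16, adjusted p = 0.00365), again with no overlap. The TDBPP and 7,12-B[a]AQ calls held in every alternative. The abcb4 call was lost in TCEP without treatment replicate 1, 3 or 4, without DMSO replicate 1, 3 or 4 or with only the groups compared (adjusted p up to 0.126). In TPP the log2 fold change was -1.01 and did not pass (adjusted p = 0.0608), but did so without the libraries that stood apart (adjusted p = 0.0129). In whole embryos, here and for every gene below, fewer cells of a type and less RNA per cell cannot be told apart.

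Of the 140 efflux gene and treatment combinations in FRCs 21.4% passed beside 9.47% of all genes, 21 higher and 9 lower. In AHR2 Activators it was 7.14% of 140 beside 1.61%, and in other hydrocarbons 4.95% of 182 beside 3.83%. In FRCs 12 of the 14 efflux genes passed in at least 1 treatment, as 42.9% of all genes did. The efflux list was chosen with earlier results of these data known, so these shares are a description only. The FRC calls include 4 of abcc5, 3 of abcc6a and 4 of abcc6b.2, genes described below by other roles. The conjugate exporter abcc2 sits in the apical membrane of liver, gut and kidney cells. It had the smallest p of all ABC genes in the test of differences among the FRCs, whose doses also differ. Its controls were at 284, 250.5, 240.1 and 211, and TiBP libraries were at 536, 566, 648 and 596 (log2 fold change 1.25, SE 0.17, adjusted p = 8.2e-07). IPP libraries were at 428, 432, 418 and 330.2 (log2 fold change 0.70, SE 0.17, adjusted p = 0.0032). Every library of both groups was above the controls. It was lower in TCEP, at 149.6, 186, 208 and 126 (log2 fold change -0.57, SE 0.17, adjusted p = 0.0243). TBBPA-DBPE gave 204, 147, 155 and 181 (log2 fold change -0.52, SE 0.17, adjusted p = 0.0358). Both lay below the lowest control, and without the libraries that stood apart the TCEP value was -0.63 (adjusted p = 0.00395). The abcc2 call was lost in TCEP without treatment replicate 1, 3 or 4, without DMSO replicate 1 or with only the groups compared (adjusted p up to 0.204), and in TBBPA-DBPE without treatment replicate 2, 3 or 4 or without DMSO replicate 1, 2 or 3 (adjusted p up to 0.15). Liver markers did not rise with abcc2: tfa, encoding transferrin, was lower in TiBP (log2 fold change -1.69, SE 0.22, adjusted p = 5.43e-07) and IPP (log2 fold change -0.83, SE 0.22, adjusted p = 0.00833), and fabp10a did not pass in either (log2 fold change 0.18 and -0.33). Over the 10 FRCs the gut marker cdx1b was called higher in 2 and lower in 1, and the pronephros marker pax2a lower in 1. Over all genes 5.25% of FRC combinations were higher and 4.22% lower. The part of these markers in the abcc2 result was not tested.

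The related gene abcc12 passed higher in the same 2 FRCs, TiBP and IPP. It was just short of the threshold in TBBPA (log2 fold change 0.77, adjusted p = 0.0531) and TPP (log2 fold change 0.84, adjusted p = 0.0577). In TBBPA and TPP it passed with voom weights, and also without the libraries that stood apart (adjusted p = 0.00138 and 0.00674). Against controls at 39.8, 27.4, 35.6 and 38.5, TiBP libraries were at 124, 116, 129.7 and 151 (log2 fold change 1.86, SE 0.25, adjusted p = 1.36e-06). IPP libraries were at 88.1, 100.3, 104 and 128 (log2 fold change 1.55, SE 0.25, adjusted p = 3.26e-05). The lowest IPP library was far above the highest control, and both calls held in every alternative. A zebrafish copy of the antioxidant response regulator Nrf2, which in mammals acts on several of these exporters, was higher in these treatments as well, nfe2l2b by 2.95 in TiBP (adjusted p = 1.12e-08) and by 2.55 in IPP (adjusted p = 2.44e-07). It is 1 of 18 regulators and partners that were read as a list. The gene nfe2l2b was also higher in TCDD, where neither abcc2 nor abcc12 passed. Its part was not tested.

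The cyclic nucleotide exporter abcc5 showed small and even increases. Its 4 FRC controls were at 3381, 3854, 3384 and 3707, and it passed in TDBPP at 5208, 5675, 5415 and 4613 (log2 fold change 0.54, SE 0.09, adjusted p = 2.38e-05). IPP gave 4671, 4786, 5011 and 5576 (log2 fold change 0.48, SE 0.09, adjusted p = 0.000277). TCEP (log2 fold change 0.39, SE 0.09, adjusted p = 0.0068) and TiBP (log2 fold change 0.38, SE 0.09, adjusted p = 0.00284) passed as well, and outside the FRCs only DBalP did (log2 fold change 0.31, SE 0.08, adjusted p = 0.00861). All 39 FRC libraries, in all 10 treatments, were above the highest control, and the mean of the FRCs differed from DMSO by 0.33 (adjusted p = 0.00129). That contrast rests on 4 DMSO libraries. Without the libraries that stood apart abcc5 was at 0.45 in TCEP (adjusted p = 0.000267) and 0.25 in DBalP (adjusted p = 0.00566). The abcc5 call was lost in TCEP without treatment replicate 3 or 4 or with only the groups compared (adjusted p up to 0.212), and in DBalP without treatment replicate 2 or 3 or with only the groups compared (adjusted p up to 0.0808).

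For abcc6, whose loss in humans causes ectopic calcification, both zebrafish copies in the table rose in FRCs. The copy abcc6a was at 24.5, 55.4, 22.4 and 44.0 in controls and at 119, 121, 119 and 146 in IPP (log2 fold change 1.85, SE 0.39, adjusted p = 0.000854). TDBPP gave 108, 97.2, 118 and 39.5 (log2 fold change 1.27, SE 0.39, adjusted p = 0.013), and TBBPA gave 147, 96.4, 59.7 and 54.2 (log2 fold change 1.25, SE 0.39, adjusted p = 0.0367). Only IPP was clear of the controls, since TDBPP and TBBPA each had 1 library within their range. The abcc6a call was lost in TBBPA without treatment replicate 1 or 2, without DMSO replicate 1 or 3, with voom weights, with only the groups compared or without the libraries that stood apart (adjusted p up to 0.253), and in TDBPP without treatment replicate 1 or 3 or without DMSO replicate 1 or 3 (adjusted p up to 0.0652). The copy abcc6b.2 was at 164, 348, 279.7 and 269 in controls and at 495, 785, 571 and 448 in TDBPP (log2 fold change 1.13, SE 0.25, adjusted p = 0.000879). TCEP gave 706, 270.1, 679 and 742 (log2 fold change 1.12, SE 0.25, adjusted p = 0.00485), where replicate 2 stayed in the control range and the value without the libraries that stood apart was 1.47 (adjusted p = 3.97e-06). BDE-47 (log2 fold change 0.98, SE 0.25, adjusted p = 0.0262) and IPP (log2 fold change 0.82, SE 0.25, adjusted p = 0.0241) passed too. The abcc6b.2 calls in TCEP, BDE-47 and IPP were lost in 3, 5 and 4 of 18 alternatives (adjusted p up to 0.148, 0.179 and 0.146), among them those without TCEP replicate 3 or 4, BDE-47 replicate 1, 3 or 4, IPP replicate 1, 3 or 4, or without DMSO replicate 1 or 3.

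In the B[a]P study abcc6b.2 rose from 171, 177 and 169 to 292, 259 and 289 in B[a]P_1 (log2 fold change 0.70, SE 0.10, adjusted p = 0.0141). B[a]P_10 gave 275, 242 and 266 (log2 fold change 0.60, SE 0.10, adjusted p = 0.0127), and DBalP gave 225, 256 and 274 (log2 fold change 0.54, SE 0.10, adjusted p = 0.00158). The 9 treated libraries all lay above the 3 controls. Without the DMSO library that stood apart the values were 0.68, 0.58 and 0.52. BEZO was the exception, with 135 and 167 against 209.7, 206 and 221 (log2 fold change -0.50, SE 0.13, adjusted p = 0.0343). The abcc6b.2 calls in B[a]P_1, B[a]P_10 and BEZO were lost in 6, 6 and 4 of 15 alternatives (adjusted p up to 0.471, 0.216 and 0.377), among them those without B[a]P_1 replicate 1, 2 or 3, B[a]P_10 replicate 1, 2 or 3, BEZO replicate 1, or without DMSO replicate 1, 2 or 3.

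The glutathione conjugate pump abcc1 passed in TDBPP, at 637, 779, 643 and 687 against 438, 516, 500.4 and 496 (log2 fold change 0.49, SE 0.15, adjusted p = 0.0121). In DBalP it was at 362, 397 and 426 against 325, 306 and 323 (log2 fold change 0.31, SE 0.11, adjusted p = 0.043). No treated library overlapped the controls in either. The abcc1 call was lost in DBalP without treatment replicate 2 or 3, without DMSO replicate 1 or 2 or with only the groups compared (adjusted p up to 0.186). The cyclic nucleotide and prostaglandin exporter abcc4 passed in TDBPP alone, at 203, 244, 224 and 212 against 186, 154, 153 and 127 (log2 fold change 0.52, SE 0.15, adjusted p = 0.0084). Without the libraries that stood apart it also passed lower in IPP (-0.34, adjusted p = 0.0417) and higher in DBalP (0.38, adjusted p = 0.0491). Across the 33 treatments the log2 fold changes of abcc3 lay between -0.18 and 0.21, and it passed nowhere. Those of abcc13 ranged from -0.96 to 0.89, with a median of 0.68 over the FRCs, and none passed.

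The 3 abcg2 genes, copies of the breast cancer resistance protein, differed from one another. In the FRC study abcg2c fell from controls at 767, 752, 721 and 727 to 469, 605, 422 and 299.6 in TCEP (log2 fold change -0.77, SE 0.16, adjusted p = 0.00284). TiBP gave 363, 575, 431 and 508 (log2 fold change -0.68, SE 0.16, adjusted p = 0.00259), and IPP gave 389, 592, 520.0 and 455 (log2 fold change -0.62, SE 0.16, adjusted p = 0.00779). All 12 of these libraries were below the lowest control, and without the libraries that stood apart the TCEP value was -0.93 (adjusted p = 4.08e-05). The abcg2c call was lost in TCEP without treatment replicate 4 or with only the groups compared (adjusted p up to 0.117), and in IPP without treatment replicate 1 (adjusted p up to 0.082).

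The copy abcg2d went up in TDBPP, at 232, 242, 245 and 228 against 73.5, 132, 142 and 161 (log2 fold change 0.95, SE 0.20, adjusted p = 0.00046). It went down in B[a]P_10, at 53.2, 56.6 and 49.7 against 101, 106 and 118 (log2 fold change -1.01, SE 0.14, adjusted p = 0.00248). TCDD lowered it as well, to 121, 138, 107 and 109 against 197, 231, 179 and 188 (log2 fold change -0.74, SE 0.13, adjusted p = 0.0227). In none of the 3 did treated and control libraries overlap, and without the DMSO library that stood apart the B[a]P_10 value was -0.95 (adjusted p = 0.000467). The abcg2d call was lost in B[a]P_10 without treatment replicate 1, 2 or 3 or with only the groups compared (adjusted p up to 0.0925), and in TCDD without treatment replicate 1, 3 or 4, without DMSO replicate 1, 2 or 3 or with the replicate number as a block (adjusted p up to 0.0804). B[a]P_1 had 74.6, 79.3 and 61.9, also below its controls but short of the threshold (log2 fold change -0.59, adjusted p = 0.0911), which it passed without that DMSO library (adjusted p = 0.0393). The third copy, abcg2a, was lower in 7,12-B[a]AQ, at 121, 127 and 81.9 against 191, 179 and 165 (log2 fold change -0.72, SE 0.14, adjusted p = 0.00299). It was higher in IPP, at 163, 205, 153 and 179 against 119, 108, 120.0 and 127 (log2 fold change 0.56, SE 0.18, adjusted p = 0.0337), again without overlap. The abcg2a call was lost in IPP without treatment replicate 1 or 4, without DMSO replicate 1, 2 or 3 or under upper-quartile scaling (adjusted p up to 0.111).

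Of the bile salt genes, abcb11b, a copy of the bile salt export pump, passed once. TiBP libraries held 29.6, 57.6, 52.3 and 43.4 normalized reads against 26.8, 22.7, 18.3 and 18.4 (log2 fold change 1.03, SE 0.33, adjusted p = 0.0236), so that the lowest treated library was just above the highest control, on low counts. The abcb11b call was lost in TiBP without treatment replicate 3 or 4 or without DMSO replicate 3 or 4 (adjusted p up to 0.098).

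**Figure D4:**
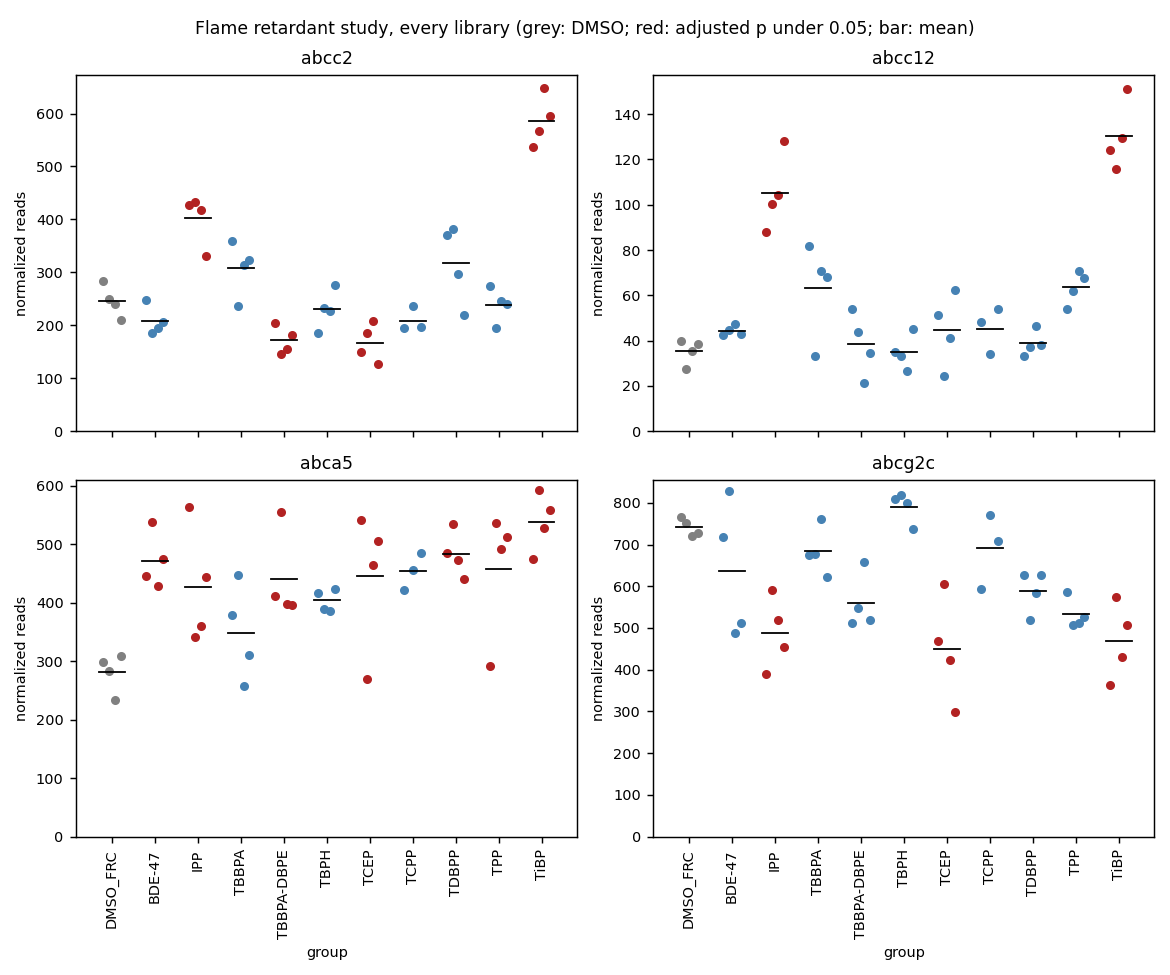
Normalized reads of abcc2, abcc12, abca5 and abcg2c in every library of the flame retardant study, with DMSO in grey, treatments past an adjusted p of 0.05 in red and bars at the group means. TiBP and IPP stand above the other groups for abcc2 and abcc12, abca5 is raised in most groups, with TPP replicate 1 (291) and TCEP replicate 2 (269) at control levels, and abcg2c lies below the controls in TCEP, TiBP and IPP.

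Among the lipid exporters the largest changes of any ABC gene were those of abca4b, a copy of the transporter that clears retinoid adducts from photoreceptor outer segments. It was lower in 4 FRCs and 6 other hydrocarbons and in no AHR2 Activator. In the FRC study its controls were at 94.1, 91.5, 89.5 and 77.1, and TiBP libraries were at 19.7, 15.2, 14.3 and 13.0 (log2 fold change -2.44, SE 0.32, adjusted p = 7.22e-07). TBBPA gave 16.4, 7.87, 25.7 and 18.9 (log2 fold change -2.39, SE 0.32, adjusted p = 2.69e-06), and -2.08 without the libraries that stood apart. TDBPP gave 31.4, 10.1, 10.8 and 26.4 (log2 fold change -2.27, SE 0.32, adjusted p = 1.43e-06), and IPP gave 16.3, 22.8, 31.6 and 25.9 (log2 fold change -1.86, SE 0.32, adjusted p = 7.53e-05). In all 4 groups the highest treated library was far below the lowest control, and all 4 calls held in every alternative.

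DBalP lowered abca4b furthest, from 248, 257 and 156 to 22.9, 10.5 and 21.0 (log2 fold change -3.57, SE 0.26, adjusted p = 5.83e-07), and -3.80 without the DMSO library that stood apart. In the DMSO_B set, with controls at 59.5, 71.4, 52.2 and 41.6, 9-MA libraries were at 31.5, 9.50, 18.9 and 20.4 (log2 fold change -1.52, SE 0.22, adjusted p = 4.56e-06). Carbazole gave 21.9, 23.4, 18.1 and 30.5 (log2 fold change -1.22, SE 0.22, adjusted p = 0.000515), and 4h-CPdefP gave 30.0, 24.2, 17.5 and 27.7 (log2 fold change -1.14, SE 0.22, adjusted p = 0.00105). BEZO was at 125 and 92.0 against 244, 235 and 251 (log2 fold change -1.17, SE 0.16, adjusted p = 0.000179), and 9,10-PQ at 127, 189 and 137 (log2 fold change -0.71, SE 0.14, adjusted p = 0.00451). Treated libraries were below all controls in each of the 6. The abca4b call was lost in 4h-CPdefP without treatment replicate 3 (adjusted p up to 0.0509). The other copy, abca4a, passed only in DBalP, at 4.03, 3.01 and 2.86 against 8.73, 13.4 and 18.6 (log2 fold change -1.71, SE 0.53, adjusted p = 0.025), where the libraries held few reads. The abca4a call was lost in DBalP without treatment replicate 1 or 3, without DMSO replicate 2 or with voom weights (adjusted p up to 0.101).

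The retina markers moved with abca4b in part. The photoreceptor and pineal transcription factor crx was lower in 9 of the 10 treatments in which abca4b was lower, and in no other treatment. It ranged from log2 fold changes of -0.35 in 9,10-PQ to -2.56 in DBalP, where its libraries were at 273, 286 and 241 against 1391, 1521 and 1835. Carbazole was the exception, with crx at 608, 768, 1018 and 734 against 918, 1061, 1144 and 1133 (log2 fold change -0.46, adjusted p = 0.0656). The marker rpe65a of the retinal pigment epithelium was lower in 3 of the 10 and higher in DBalP (log2 fold change 0.80, adjusted p = 0.000273), and it was lower in TBBPA-DBPE and 7,12-B[a]AQ, where abca4b did not pass. The part of these markers in the abca4b result was not tested.

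**Figure D5:**
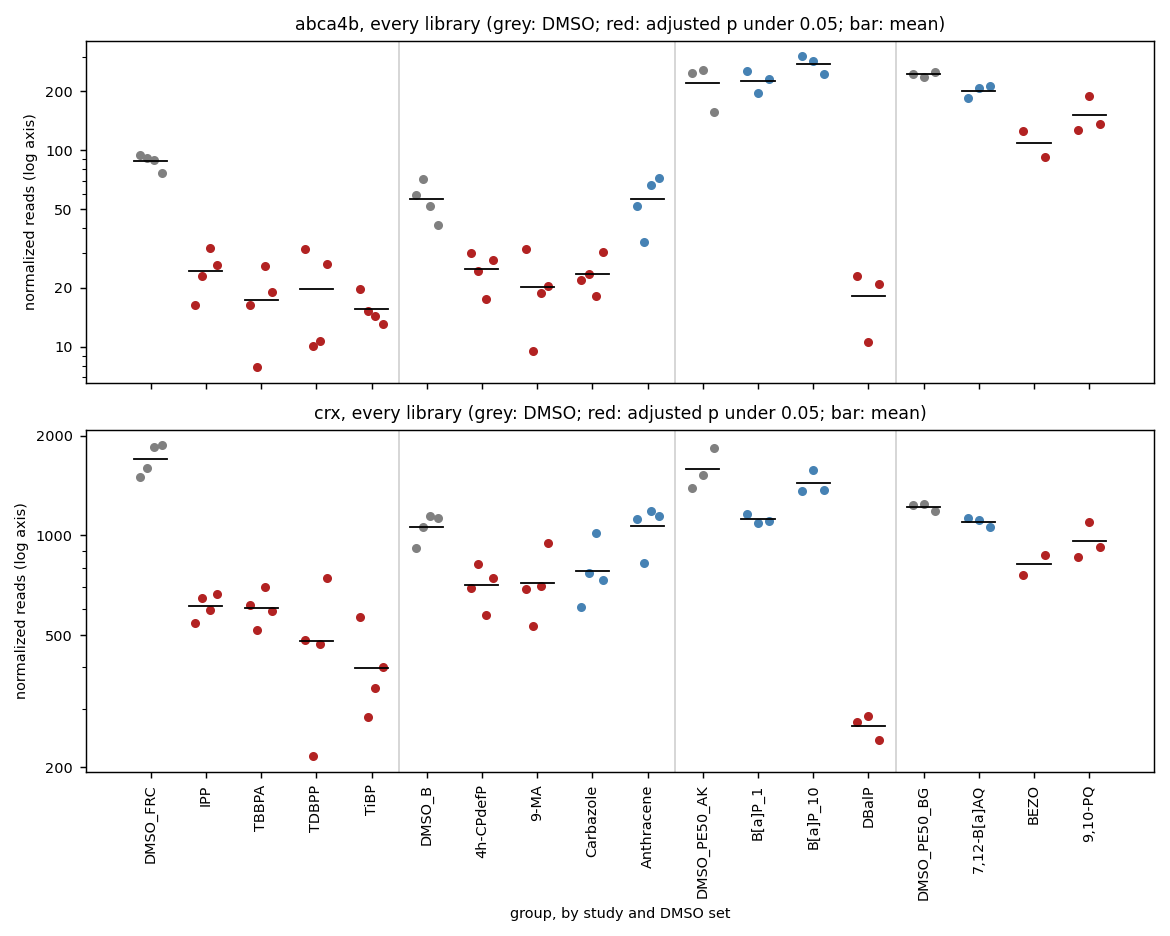
Normalized reads of abca4b (top) and the photoreceptor and pineal marker crx (bottom) in every library of the treatments in which abca4b passed and of some neighbours from the same studies, on log axes, with DMSO in grey, treatments past an adjusted p of 0.05 in red and bars at the group means. The DBalP libraries lie at 10.5 to 22.9 for abca4b and at 241 to 286 for crx, below every other group of their study.

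The late endosomal and lysosomal transporter abca5 was the one ABC gene called in at least 5 FRCs in 1 direction, a pattern shown by 3.90% of all genes. It was higher in 7 of 10, by 0.58 to 0.94 on the log2 scale. Controls held 298, 283, 234 and 309, and TiBP libraries held 474, 592, 528 and 559 (log2 fold change 0.94, SE 0.18, adjusted p = 0.000335). TDBPP gave 485, 535, 473 and 441 (log2 fold change 0.78, SE 0.18, adjusted p = 0.00147), BDE-47 gave 446, 538, 429 and 474 (log2 fold change 0.75, SE 0.18, adjusted p = 0.0201) and IPP gave 564, 341, 359.6 and 444 (log2 fold change 0.58, SE 0.18, adjusted p = 0.0283). All of these libraries exceeded the highest control. TBBPA-DBPE gave 411, 555, 398 and 396 (log2 fold change 0.64, SE 0.18, adjusted p = 0.022), also clear of the controls with replicate 2 far above the rest. TCEP (541, 269, 465 and 505, adjusted p = 0.028) and TPP (291, 535, 492 and 512, adjusted p = 0.0356) each had 1 library at control level, TCEP replicate 2 and TPP replicate 1, and without the libraries that stood apart the TCEP value was 0.84 (adjusted p = 0.000167). In the same libraries tfe3a, a transcription factor of lysosomal genes that was higher in all 10 FRCs, was low as well, with 356, 49.9, 278 and 288 in TCEP and 62.5, 337, 218 and 254 in TPP against 12.2, 40.7, 25.4 and 16.5 in controls. What sets these libraries apart was not tested. The 3 FRCs that did not pass were higher too, TBPH at 417, 388, 386 and 423, TCPP at 422, 456 and 485 and TBBPA at 378, 447, 258 and 311. TBPH and TCPP did not overlap the controls, and TCPP passed without the libraries that stood apart (adjusted p = 0.0101). All 10 FRC comparisons share the 4 FRC controls, whose mean abca5 level of 281 was the lowest of the 6 DMSO groups. The DMSO groups of the other studies had means of 326 to 525. The part of the control level in these increases was not tested. In the F test of differences among the FRCs abca5 did not pass (adjusted p = 0.196). The abca5 calls in BDE-47, IPP, TBBPA-DBPE, TCEP and TPP were lost in 4, 3, 4, 6 and 6 of 18 alternatives (adjusted p up to 0.168, 0.164, 0.0801, 0.216 and 0.243), among them those without BDE-47 replicate 3 or 4, IPP replicate 1 or 4, TBBPA-DBPE replicate 3 or 4, TCEP replicate 1, 3 or 4, TPP replicate 3 or 4, or without DMSO replicate 1, 2 or 3. Of the hydrocarbons only DBalP passed, and there abca5 was lower (log2 fold change -0.29, SE 0.09, adjusted p = 0.0293), a call that was lost in 9 of 15 alternatives.

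The cholesterol exporter abca1a fell in TiBP, from 1124, 1705, 1362 and 1409 in controls to 683, 673, 701 and 711 (log2 fold change -1.001, SE 0.13, adjusted p = 8.64e-07), with 4 nearly equal libraries well below the lowest control, and the call held in every alternative. TPP gave 772, 1030.1, 1193 and 974 (log2 fold change -0.50, SE 0.13, adjusted p = 0.0309), which overlapped the controls. The abca1a call was lost in TPP without treatment replicate 1, 3 or 4, without DMSO replicate 2, 3 or 4 or with only the groups compared (adjusted p up to 0.178). It was higher in 7,12-B[a]AQ (log2 fold change 0.48, SE 0.08, adjusted p = 0.00115) and in 9,10-PQ (log2 fold change 0.31, SE 0.08, adjusted p = 0.0318), the latter lost in 6 of 15 alternatives, the lane block among them. Its copy abca1b did not pass in either FRC, with 0.08 in TiBP and -0.07 in TPP. Of the other lipid genes abca2, which is enriched in oligodendrocytes and neurons of mammals, was lower in TBBPA, TDBPP and DBalP (log2 fold changes -0.49, -0.48 and -0.45), the skin lipid transporter abca12 was higher in 9,10-PQ and DBalP, and abcg4b was higher in TDBPP (0.90). The abca12 call was lost in 9,10-PQ without treatment replicate 1, without DMSO replicate 2 or with the lane as a block (adjusted p up to 0.865). The abca2 call was lost in TBBPA without treatment replicate 2 or with only the groups compared (adjusted p up to 0.352). Without the libraries that stood apart the abca2 value in TBBPA was -0.32 (adjusted p = 0.0369). The abcg4b call was lost in TDBPP without treatment replicate 1, 3 or 4 or without DMSO replicate 2 or 3 (adjusted p up to 0.12). The neuron marker elavl3 was lower in 2 of the 3 treatments with lower abca2, with log2 fold changes of -0.99 in TDBPP and -0.77 in DBalP, and did not pass in TBBPA (-0.12), and its part was not tested.

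In the mitochondrial and heme group abcb6a, a copy of the porphyrin transporter, passed higher in 3 of the 10 AHR2 Activators and in 2 other hydrocarbons. Controls of the 7,12-B[a]AQ study held 133, 150.1 and 148, and 7,12-B[a]AQ libraries held 274, 316 and 317 (log2 fold change 1.07, SE 0.10, adjusted p = 1.25e-06). BEZO gave 191 and 215 (log2 fold change 0.49, SE 0.11, adjusted p = 0.0137). Both were clear of the controls, and the 7,12-B[a]AQ call held in every alternative. B[a]P_10 gave 283, 289 and 260.5 against 169, 185 and 134 (log2 fold change 0.77, SE 0.15, adjusted p = 0.0198), and 0.64 without DMSO replicate 3 (adjusted p = 0.00274). DBalP gave 238, 199 and 275 (log2 fold change 0.54, SE 0.15, adjusted p = 0.0129). Retene gave 281, 404, 306 and 254 against 171, 216 and 162 (log2 fold change 0.75, SE 0.16, adjusted p = 0.00392), and again no treated library overlapped its controls. The abcb6a call was lost in BEZO without treatment replicate 1 or 2 or without DMSO replicate 1 (adjusted p up to 0.271), and in Retene without treatment replicate 2 or without DMSO replicate 4 (adjusted p up to 0.0687). The abcb6a call was lost in B[a]P_10 without treatment replicate 1, 2 or 3, on the deposited log2 values, with a plain mean of entries or with only the groups compared (adjusted p up to 0.324), and in DBalP without treatment replicate 1 or 3, on the deposited log2 values, with a plain mean of entries or with only the groups compared (adjusted p up to 0.11). It passed in no FRC, and in TCDD it was at 304, 287, 394 and 277 against 288, 310.3, 402 and 328 (log2 fold change -0.08). The embryonic hemoglobin gene hbbe1.1 passed in none of the 3 Activators with higher abcb6a. The other copy, abcb6b, was higher in TDBPP (0.86), TBBPA-DBPE (0.71) and DBalP (0.66) and lower in DBahP (-0.52). Its TDBPP call held in every alternative, while those in TBBPA-DBPE, DBahP and DBalP were lost in 8 of 18, 8 of 19 and 2 of 15 alternatives (adjusted p up to 0.145, 0.311 and 0.0922). The mitochondrial transporter abcb10, which serves heme synthesis, was higher in DBalP (0.84). The abcb10 call was lost in DBalP on the deposited log2 values (adjusted p up to 0.0714).

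In peroxisomes abcd2, which in mammals imports very long chain and polyunsaturated fatty acids, passed in TiBP, at 55.9, 73.6, 31.5 and 79.0 against 10.7, 14.7, 35.6 and 26.6 (log2 fold change 1.47, SE 0.49, adjusted p = 0.0302), with overlap between the groups. The abcd2 call was lost in TiBP without treatment replicate 4 or without DMSO replicate 1 or 2 (adjusted p up to 0.129). Outside the FRCs the peroxisomal half-transporter abcd3b was higher in DBalP (0.65, adjusted p = 0.00679). The abcd3b call was lost in DBalP without treatment replicate 1 or 2 (adjusted p up to 0.0564).

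Sulfonylurea receptor genes, which regulate ATP-sensitive potassium channels, passed in 2 treatments. In IPP abcc8b was at 14.5, 7.98, 11.1 and 8.65 against 32.9, 30.1, 16.3 and 22.9 (log2 fold change -1.18, SE 0.35, adjusted p = 0.0175), all below the controls but on few reads. In DBalP abcc8 was lower by a smaller amount (log2 fold change -0.33, SE 0.12, adjusted p = 0.0461), and 10 of 15 alternatives ended that call. The abcc8b call was lost in IPP without treatment replicate 4 or without DMSO replicate 1 or 2 (adjusted p up to 0.0906).

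The ribosome-associated genes fell together in 7,12-B[a]AQ, where 4 of the 5 passed lower beside 4.72% of all genes. Of these abcf2a changed most, from 1137, 1174 and 1263 to 613, 728 and 502 (log2 fold change -0.97, SE 0.11, adjusted p = 1.44e-05). The ribosome recycling factor abce1 went from 2034, 2167 and 2126 to 1574, 1613 and 1492 (log2 fold change -0.43, SE 0.07, adjusted p = 0.000495). The initiation factor abcf1 went from 2533, 2893 and 2708 to 2083, 2106 and 2160.1 (log2 fold change -0.36, SE 0.08, adjusted p = 0.00973). None of these overlapped the controls. The abcf1 call was lost in 7,12-B[a]AQ without treatment replicate 2 or without DMSO replicate 2 (adjusted p up to 0.0667). The call of the fourth gene, abcf3 (log2 fold change -0.46), was lost in 8 of 15 alternatives. BEZO lowered abcf2a alone, to 670.0 and 743 (log2 fold change -0.75, SE 0.12, adjusted p = 0.00123). The opposite was seen in DBalP, where abcf1, abcf2a, abcf2b and abcf3 were higher by 0.52 to 0.85, and in TDBPP, where abcf2a was at 1709.7, 2061, 1934 and 2310.4 against 1078, 1189, 1334 and 1088 (log2 fold change 0.77, SE 0.16, adjusted p = 0.000329). Of the DBalP calls that of abcf2a held in every alternative, while those of abcf1, abcf2b and abcf3 were lost in 2 of 15, 4 of 15 and 4 of 15 alternatives (adjusted p up to 0.0915, 0.0912 and 0.153). B[a]P_10 raised abcf2a as well, to 896, 963 and 763 against 692, 562 and 574 (log2 fold change 0.52, SE 0.11, adjusted p = 0.0373). The abcf2a call was lost in B[a]P_10 without treatment replicate 1, 2 or 3, without DMSO replicate 2 or with only the groups compared (adjusted p up to 0.4). The H subfamily gene abch1 passed nowhere. It had DBalP libraries at 21.5, 24.1 and 28.6, but 1 of its DMSO libraries held no read of it.

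The next contrasts averaged treatments or set them against each other. The mean of the 10 FRCs differed from DMSO for 7 ABC genes beside 11.3% of all genes. Among them abcc5, abca5, abcc6b.2 and abcc12 were higher and abca4b and abcg2c lower, with 0.65 for abca5 (SE 0.14, adjusted p = 0.00166). The calls of abcc12, abcc6b.2 and abcg2c in this contrast were lost in 6 of 17, 3 of 17 and 7 of 17 alternatives, and those of abcc5, abca5 and abca4b held in all. Without DMSO replicate 1, 3 or 4, or without replicate 4 of every FRC, this count was 4, beside 4.03% to 8.63% of all genes. Without the libraries that stood apart it was 11 beside 24.0%. Differences among the 10 FRCs, tested without the DMSO libraries, passed for 25 of 47 beside 36.7% of all genes. Doses also differ among the FRCs, so this test does not separate chemical from dose. The 10 with the smallest p were abcc2, abcb5, abca4b, abca1a, abcc12, abcf1, abcb11b, abcf2a, abcc4 and abcg2d, and abca5 was short of the threshold (adjusted p = 0.196).

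Within the DMSO_A set the 6 AHR2 Activators exceeded the 3 other hydrocarbons for 2 ABC genes beside 1.57% of all genes. These were abcc6b.2 (log2 fold change 0.37, SE 0.07, adjusted p = 0.000135) and abcb6a (log2 fold change 0.34, SE 0.08, adjusted p = 0.00342). In limma abcb5 did not pass (log2 fold change 0.21, SE 0.06, adjusted p = 0.0531). It did with voom weights, which gave 3 calls beside 1.62% of all genes. The abcb6a call was lost without replicate 1 or 2 of every treatment (adjusted p up to 0.0959). Doses differ within this contrast. Between B[a]P_10 and B[a]P_1 no ABC gene passed in limma, beside 0.183% of all genes. At an unadjusted p under 0.05 there were 8, beside 1722 of all 21854 genes. The gene abcb6a came nearest, at 283, 289 and 260.5 against 171, 153 and 189 (log2 difference 0.70, interval 0.38 to 1.01, adjusted p = 0.0999). These groups did not overlap. Voom gave 1 call beside 0.339% of all genes. Without replicate 3 of the DMSO group, which enters this contrast only through the shared spread, 4 ABC genes passed beside 3.85% (abcb6a with adjusted p = 0.000628). The lanes also differed between the doses. DMSO_A and DMSO_B, which hold no chemical, differed for 0 ABC genes in limma beside 0.0595% of all genes. At an unadjusted p under 0.05 there were 4, beside 1375 of all 21854 genes, and with voom weights 0 passed.

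In all, 6 pairs of related compounds were compared at the same dose, in the same study and with the same controls, and 32 of 282 differences passed beside 9.39% for all genes. TBBPA and its dibromopropyl ether TBBPA-DBPE, both at 4 µM, differed for 13 ABC genes beside 25.1%. Relative to TBBPA-DBPE, TBBPA had lower abca4b (-1.85, adjusted p = 0.000106). It had higher abcb5 (0.97, adjusted p = 0.000155), abcc2 (0.84, adjusted p = 0.000537), abcf1 (0.72, adjusted p = 0.000584) and abce1 (0.75, adjusted p = 0.000927). The abcf1 call was lost with only the groups compared (adjusted p up to 0.0589). Without TBBPA replicate 2 and the other libraries that stood apart 15 passed beside 23.8% of all genes, 11 of them among the 13.

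The chloroethyl phosphate TCEP and the chloroisopropyl phosphate TCPP, both at 85 µM, differed for no ABC gene in limma beside 0.448% of all genes. At an unadjusted p under 0.05 there were 7, beside 2736 of all 21854 genes. For abcb5 the difference was -0.68 (interval -1.06 to -0.30, adjusted p = 0.0864), and for abcg2c it was -0.66 (interval -1.01 to -0.30). These intervals leave room for differences of over 2-fold. Without the libraries that stood apart, TCEP replicate 2 among them, 5 passed beside 8.61% of all genes. These included abcb5 and abcg2c (adjusted p = 0.0307 and 0.00369). With voom weights 0 ABC genes passed.

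DBalP, which has 1 more fused ring than B[a]P, differed from B[a]P_10 for 13 genes beside 24.4%, on different lanes. The smallest p-values were those of abca4b (-3.92, adjusted p = 3.89e-07), abcg2d (1.19, adjusted p = 4.48e-05) and abca1b (0.53, adjusted p = 0.000268). The quinone 7,12-B[a]AQ and the ketone BEZO, both at 10 µM, differed for 4 genes beside 2.32%. In 7,12-B[a]AQ abca4b (0.90), abcb6a (0.57) and abcc6b.2 (0.51) were higher and abcg2a (-0.90) was lower, with adjusted p of 0.00324 to 0.0391, each lost in at least 1 alternative (adjusted p up to 0.0843, 0.141, 0.477 and 0.079), while abcb5 differed by -0.04 (interval -0.21 to 0.14).

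Adding a methyl group to Anthracene, as in 9-MA at the same 50 µM, was accompanied by differences in 2 genes beside 4.17%. For abca4b the 9-MA libraries at 31.5, 9.50, 18.9 and 20.4 were all below the Anthracene libraries at 52.2, 34.0, 66.3 and 72.6 (log2 fold change -1.50, SE 0.22, adjusted p = 4.39e-06), and abce1 was higher (0.35, adjusted p = 0.0157). The abca4b call was lost with only the groups compared (adjusted p up to 0.0852). The abce1 call was lost without treatment replicate 1, 2 or 3, with the lane as a block or with only the groups compared (adjusted p up to 0.19). The naphthalenes 1,5-DMN and 2-MN, which differ in the number and place of methyl groups, differed for no ABC gene and 0.00% of all genes in limma. At an unadjusted p under 0.05 there were 6 ABC genes, beside 861 of all 21854 genes, and with voom weights 0 passed the threshold. The interval for abcb5 ran from -0.05 to 0.42 and that for abcc6a from 0.32 to 2.38.

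The ABC proteins that carry other symbols and the known regulators of these pumps were read as lists. Of cftr, tap1 and tap2t, the peptide transporter tap1 was higher in 8 of 10 FRCs (1.05 to 2.29 on the log2 scale) and in no hydrocarbon, tap2t was higher in DBalP alone (1.48), and cftr passed nowhere. The 18 regulators and partners gave 24 higher and 1 lower call of 180 in FRCs (beside 5.25% and 4.22% of all genes), 41 and 1 of 180 in AHR2 Activators (0.839% and 0.776%) and 23 and 5 of 234 in other hydrocarbons (1.79% and 2.04%). The list holds cyp1a, a target of the aryl hydrocarbon receptor that gave 10 of the 41, ahrra, its repressor, and ahr2 itself. The study counts these among known AHR2-regulated genes. The Activators are classed by AHR2 activation, so the excess there follows in part from how the class and the list were chosen. Here cyp1a was higher in all 10 AHR2 Activators (5.17 to 7.90 on the log2 scale). Of these abcb5 passed in 4, with log2 fold changes from 0.17 to 0.91 over all 10. In the other hydrocarbons those of abcb5 ran from 0.07 to 0.74. The study reports that cyp1a was induced by some of these hydrocarbons too, so the classes do not separate treatments with and without its induction. Among the Activators abcb4 passed lower in 1 and abcg2d in 2. The part of the receptor in these values was not tested. The xenobiotic receptor nr1i2 was higher in TDBPP (0.64), TiBP (0.66) and DBalP (0.48), which also have the most calls over all genes (25.5%, 18.9% and 31.8%).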

How the data were processed

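Whole embryos of 33 treatments and 6 DMSO groups were profiled by RNA-seq. The authors aligned reads with STAR, counted them per gene with HTSeq on GRCz11 and normalized them with DESeq2. The deposited table was taken to hold log2 values after variance stabilization. That step was inferred from the values and is not given in the sources used here. Genes with 0 reads in more than 43 of 170 entries are absent from it. The log2 values were turned back into normalized reads and whole reads (100.0% of 3715180 values were whole within 0.05), and entries sharing lane and index were joined (noise ratio 0.986 to 1.12 over 31 pairs, against 1.34 to 8.73 over 22 pairs of different libraries), leaving 144 libraries. Gene symbols came from a zebrafish gene table by NCBI GeneID (20411 of 21854 genes matched).

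log2(normalized reads + 1) was tested with limma 3.58.1 (R 4.3.3, trended variance, 1 fit per study), each treatment against its own DMSO group, with Benjamini-Hochberg adjustment over all 21854 genes of each comparison, and a call was an adjusted p under 0.05. Intervals are 95% intervals. A list of role groups fixed the order of the text. Genes named with values were the efflux genes passing in any treatment and abcb4, abcb5, abcc1, abcc2, abcc4 and abcg2a in any case, genes called in at least 5 FRCs or 3 AHR2 Activators in 1 direction, DEGs, the 10 with the smallest p among FRCs and up to 5 per other contrast. Some genes that met this rule are not reported here, although the counts include them. Other genes named were chosen after their values were seen. Members and lists were chosen with earlier results of these data known. On simulated data the test recovered 200 of 200 genes changed by 2 on the log2 scale in a comparison shaped like TiBP against DMSO, with 10 unchanged genes called among 21854. The changed genes were drawn from those above a minimum mean level, every gene had the same dispersion, and no library stood apart. Smaller changes and changes in genes with few reads were not simulated.

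Alternatives were pseudocounts of 0.5 and 5, a minimum mean of 10 reads, the deposited log2 values, voom weights, upper-quartile scaling, a plain mean of entries, omission of replicates, replicate and lane blocks, fits of only the groups compared, a pooled DMSO_A and DMSO_B control and, chosen after seeing the data, omission of the 4 libraries that stood apart (root mean square deviation over 2 times the median of their study). No count test other than voom was run on the recovered reads. The table gave no positions in a genome whose sequence could be read here, so no sequences are shown.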

Additional observations from a re-analysis of the deposited data

Results flagged for a closer look

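In 9 of 103 combinations of gene and group, 1 library lay far from the others of its group by Dixon's test, where chance gives about 1 in 20. Higher than the rest were TBBPA-DBPE library 2 for abca5, at 555 normalized reads against 396 to 411, TCEP library 1 for abcb4, at 55.9 against 38.4 to 40.8, 4h-CPdefP library 1 for abcb5, at 1679 against 1357 to 1361, TiBP library 4 for abcb8, at 465 against 335 to 346, and IPP library 4 for abcc6a, at 146 against 119 to 121. Lower than the rest were Retene library 4 for abcb5, at 1089.8 against 1767 to 1841, DBahP library 2 for abcb6b, at 169.5 against 246 to 260.4, IPP library 4 for abcc2, at 330.2 against 418 to 432, and TCEP library 2 for abcc6b.2, at 270.1 against 679 to 742. Of these only the last is a library that stood apart over all genes.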

How the results depend on the processing

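The count of ABC genes past the threshold was 60 in FRCs and ran from 35 to 89 when replicates were left out, 21 in AHR2 Activators with 10 to 23, 39 in other hydrocarbons with 23 to 41, 7 for the mean of the FRCs with 4 to 9, 25 for differences among the FRCs with 15 to 28, 2 for Activators against others with 1 to 3, 0 for the B[a]P doses with 0 to 4, and 32 over the 6 pairs with 16 to 35. Without the 4 libraries that stood apart it was 101 in FRCs, 11 for the mean of the FRCs and 4 for the B[a]P doses. With voom weights on the recovered reads the 3 classes had 63, 21 and 36 calls. A pooled DMSO_A and DMSO_B control gave 38 in AHR2 Activators, voom gave 1 and a fit of only the groups compared gave 2 for the B[a]P doses, and the cause of these shifts was not tested. The replicate block gave 63, 21 and 40 in the 3 classes, 7, 25, 2, 33 and 0 in the contrasts, and same-numbered libraries did not deviate together (median correlation -0.001 in the FRC study, 0.003 for the hydrocarbons tested against DMSO_A or DMSO_B, -0.07 in the TCDD study), so the numbers were not taken as pairing. No paired analysis was possible for the other 2 studies because entries there were joined into libraries with numbers of their own. Over 161 called values and 2708 alternative values, 2261 stayed past the threshold, 447 did not and 0 changed sign, and 62 calls passed in every alternative. Upper-quartile scaling moved the median of all genes by -0.095 to 0.045 on the log2 scale. The lane block could not be estimated for B[a]P_1, DBalP and the B[a]P doses. Lowly counted genes such as abca4a, abcb11b, abcc8b and abch1 limit what can be detected.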

Other observations

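The peptide transporter tap1, which loads peptides for antigen presentation, held 7.65, 12.7, 10.2 and 9.18 normalized reads in the FRC controls and 39.5, 71.0, 52.4 and 48.3 in TDBPP (log2 fold change 2.29, SE 0.31, adjusted p = 7.03e-07), with no overlap. BDE-47, in which 3 ABC genes passed, had tap1 at 19.0, 26.9, 20.1 and 32.1 (log2 fold change 1.21, SE 0.31, adjusted p = 0.0261). The regulator nfe2l2b was higher in TCDD, where abcg2d alone of the 47 passed, with 116, 175, 115 and 126 against 33.9, 29.7, 35.0 and 25.9 (log2 fold change 2.05, SE 0.18, adjusted p = 0.000175), and the farnesoid X receptor nr1h4, a bile acid sensor known in mammals to act on the bile salt pump gene, was lower in TDBPP (log2 fold change -1.37, SE 0.34, adjusted p = 0.00284), 4h-CPdefP (log2 fold change -1.17, SE 0.30, adjusted p = 0.0305) and 9-MA (log2 fold change -1.07, SE 0.30, adjusted p = 0.0313), where neither abcb11a nor abcb11b passed.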
